A study of Bombyx mori with 12 samples.

Results

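Tweedle and CPF-type genes code for small families of structural proteins of the insect cuticle, and their transcripts were followed here across the tissues of the silkworm Bombyx mori. The genes were taken by name, as every array name that begins with BmorCPT (Tweedle) or BmorCPF (CPF, and the CPF-like CPFL genes). That gave 9 genes: 4 Tweedle genes (BmorCPT1 to BmorCPT4), 1 CPF gene (BmorCPF) and 4 CPFL genes (BmorCPFL1 to BmorCPFL4). They are 9 of 220 cuticular protein names on the array, and their 18 probes, 2 for each gene, are part of 42340 probes.

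The study set the gland complex that makes juvenile hormone against other tissues of a commercial hybrid strain, Kinsyu x Showa, reared on mulberry leaves. This complex of corpora cardiaca and corpora allata (CC-CA) was dissected from 5th instar larvae at day 4 (1 array) and from 4th instar larvae at day 2 (2 arrays, from batches described as separate experiments). Epidermis, fat body, midgut, brain, salivary gland, prothoracic gland and Malpighian tubule were taken from 4th instar larvae at day 2. The gonads, testis and ovary, were taken from 5th instar larvae at day 10, which was 3 days into wandering. Each of these 9 tissues had 1 array. No genotype, transgene or drug separates the groups, and the labels do not give the number of larvae pooled for an array.

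Tweedle proteins take their name from a Drosophila mutant with a short, squat body, and they carry a domain shared across insects. CPF proteins carry a short conserved motif, and CPFL proteins resemble them towards the C-terminus but lack that motif. In insects the epidermis secretes the cuticle anew at each moult, so transcripts of cuticular proteins follow the moulting cycle, which ecdysteroids drive and juvenile hormone modifies. RefSeq's annotation of the silkworm assembly ASM3026992v2 held a gene of the same name for 9 of the 9 genes. It lists BmGRP1 as an older name of CPT2 and BmGRP2 as an older name of CPT3. In that annotation CPFL2 and CPFL3 are next to each other, and 3 genes lie between CPFL3 and CPFL4, among them the glycine-rich cuticular genes CPG22 and CPG23.

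Each value below is a level in log2 units: the background-corrected, 1-colour signal of a probe relative to the 75th percentile of all probes on its array. A level of 0 is therefore the signal that 75% of probes lay below. A level says how a probe compares between arrays and not how one gene compares with another. The brighter of the 2 probes stands for a gene unless the second is named. A signal that the scanner software did not mark as well above background is given as measured and marks only an upper bound. Only the 4th instar CC-CA had replicate arrays, so the single arrays were assumed to vary like that pair in every test, and the small number of arrays limits the precision.

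The 12 arrays differed in brightness, with 60.4% (fat body) to 78.6% (testis) of spots well above background and a 75th percentile of 1402 (fat body) to 5827 (ovary) intensity units. The lowest level well above background was -5.02 on the fat body array and -7.50 on the testis array, so low levels were least visible in fat body and most visible in testis. The 2 arrays of the 4th instar CC-CA correlated at r = 0.980 across probes, and each correlated with the 5th instar array at r = 0.952 and 0.965. Tissue markers went with their labels for the CC-CA, brain, fat body and Malpighian tubule: each of 8 markers, among them the adipokinetic hormone genes AKH-1 and AKH-2 and the juvenile hormone acid methyltransferase gene BmJHAMT, was highest in the tissue it marks. The summed linear level of the other cuticular families was 3415 in epidermis, against 11.6 to 411 on the other 11 arrays. No markers were set for prothoracic gland, midgut, salivary gland, testis or ovary. In these bulk samples, fewer cells of a type and less RNA per cell cannot be told apart.

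Among the Tweedle genes, the transcripts fell into different places: BmorCPT1 was highest in epidermis, BmorCPT2 and BmorCPT3 in fat body, and BmorCPT4 in ovary. BmorCPT1 stood at -4.62 on the 5th instar CC-CA array and at -0.98 and -0.77 on the 4th instar CC-CA arrays. It reached 6.17 in epidermis, and it was -2.25 in testis, -3.16 in ovary, -3.30 in prothoracic gland, -3.85 in fat body, -4.00 in brain and -5.33 in midgut. Only the Malpighian tubule (-8.12) and salivary gland (-7.29) signals were not well above background. The epidermis level was 132-fold that of the 4th instar CC-CA, the next group, a difference of 7.05 on the log2 scale with a 95% interval of 5.94 to 8.15. The 4th instar CC-CA in turn lay above testis by 1.37 (0.27 to 2.48). From testis downward, through ovary, prothoracic gland, fat body, brain, 5th instar CC-CA and midgut, no neighbours in the order were apart by their 95% intervals. These intervals come from the limma fit and are not adjusted for the number of pairs. The second probe read 0.41 to 1.13 lower on the 8 arrays where both probes were well above background, with epidermis again highest at 5.60. In fat body (-4.63) and midgut (-6.61) the second probe was not well above background, so those levels rest on the first.

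BmorCPT2 was well above background on 4 of the 12 arrays. Its level was -4.86 on the 5th instar CC-CA array, while both 4th instar CC-CA signals, -7.28 and -7.27, were not well above background. Fat body had -2.09, ovary -3.23 and testis -4.76, and the signals of the other 6 tissues, between -8.19 and -6.97, were not well above background. Fat body exceeded ovary by 1.14 (-0.12 to 2.41), so these groups were not apart, and ovary exceeded testis by 1.53 (0.26 to 2.80). Testis and the 5th instar CC-CA differed by 0.11 (-1.16 to 1.37). The second probe gave the same 4 arrays, within 0.41 of the first.

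BmorCPT3 had its highest level in fat body too, but without a signal in the CC-CA. Its 5th instar CC-CA signal of -9.19 and its 4th instar CC-CA signals of -7.86 and -7.15 were not well above background. Fat body stood at -2.18, ovary at -5.28 and testis at -6.89, with no other array well above background for this probe. Fat body lay 3.11 (1.72 to 4.50) above ovary, which is 8.63-fold, and ovary lay 1.60 (0.22 to 2.99) above testis. The probes disagreed in midgut, where the second read -5.34 and was well above background while the first, at -5.87, was not.

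BmorCPT4 was detected in the gonads. It stood at -0.62 in ovary and -5.74 in testis, and it was not well above background on the other 10 arrays, where its signals lay between -9.58 and -6.21. Ovary exceeded testis 34.9-fold, by 5.12 (3.73 to 6.52), and every other group by at least 21.2-fold, a bound set by the fat body array. The second probe agreed within 0.44 on both arrays.

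**Figure D1:**
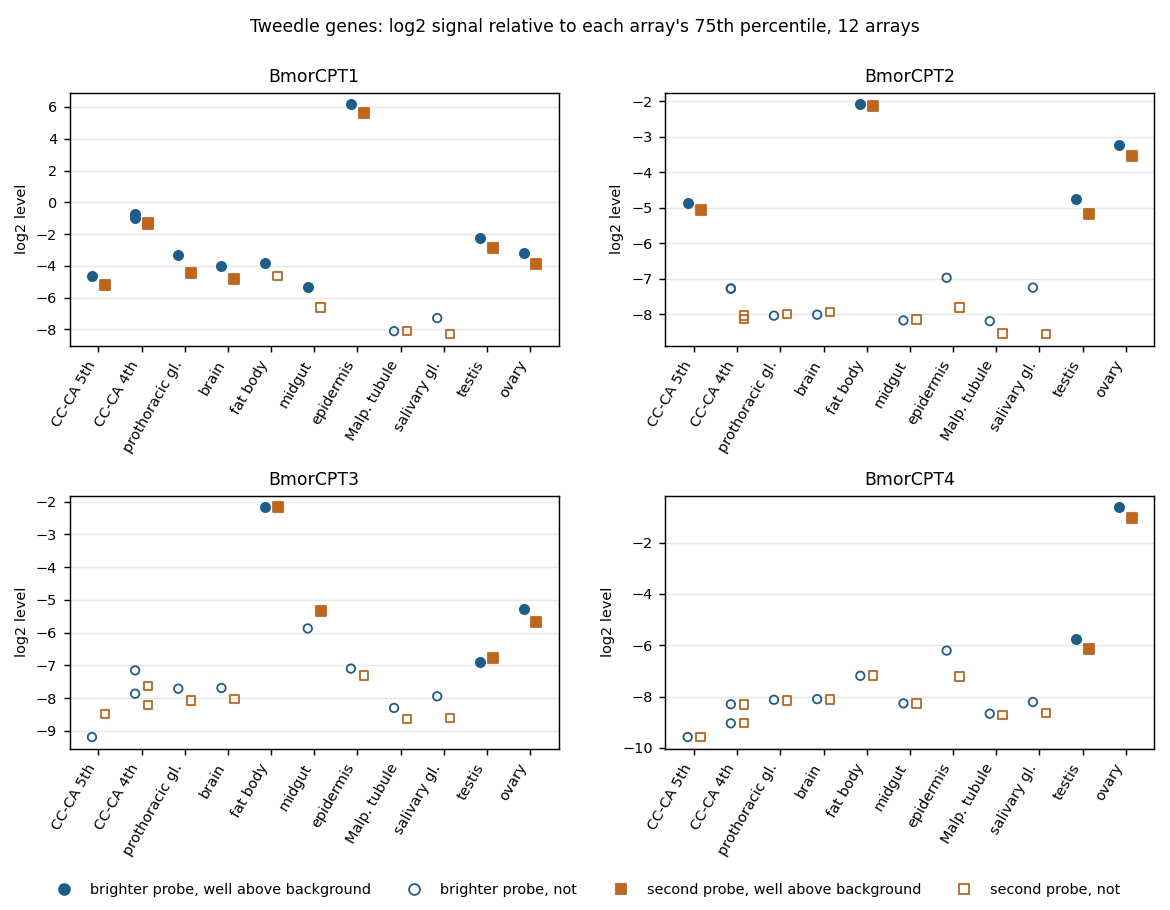
Log2 level of the 4 Tweedle genes (vertical axis, relative to each array's 75th percentile) on the 12 arrays by group (horizontal axis), with circles for the brighter probe, squares for the second, and open symbols for signals not well above background. BmorCPT1 peaks in epidermis at 6.17, BmorCPT2 and BmorCPT3 in fat body at -2.09 and -2.18, and BmorCPT4 in ovary at -0.62.

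BmorCPF, the gene that carries the CPF motif itself, was well above background on 2 of the 12 arrays. These were testis, at -4.62, and Malpighian tubule, at -5.49, which differed by 0.88 (-0.51 to 2.26) and so were not apart. Its signals on the 3 CC-CA arrays were -9.51 in the 5th instar and -8.24 and -8.95 in the 4th, and in epidermis -8.25, none well above background. The second probe saw only testis (-5.76). The order of testis over the other groups also changed with the scaling of the arrays, as given in the closing section.

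BmorCPFL1 was the CPFL gene with the widest signal, well above background on 10 of 12 arrays. Its level was -1.45 on the 5th instar CC-CA array and 0.45 and 0.57 on the 4th instar CC-CA arrays. Epidermis reached 7.05, and testis had -0.50, ovary -2.46, fat body -2.77, prothoracic gland -3.55, brain -4.84 and salivary gland -5.58. Midgut (-8.22) and Malpighian tubule (-8.69) were not well above background. Epidermis was 93.4-fold above the 4th instar CC-CA, the next group, a log2 difference of 6.54 (5.44 to 7.65). Below these, one pair of neighbours was apart, prothoracic gland over brain by 1.29 (0.02 to 2.56). The first probe read above the second by -0.02 to 1.36 on the 9 arrays where both were well above background. In salivary gland the second probe gave -7.29, which was not well above background.

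BmorCPFL2 gave little signal. It was well above background in midgut, at -5.07, and on 1 of the 2 arrays of the 4th instar CC-CA, at -5.37, while the other array of that pair gave -8.38. On the 5th instar CC-CA array it was at -9.64, not well above background. Midgut and the 4th instar CC-CA differed by 1.80 (-0.53 to 4.13), and the second probe was not well above background on any of the 12 arrays.

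BmorCPFL3 was high in epidermis, at -2.26, with the second probe at -2.21. Its 5th instar CC-CA signal of -9.12 was not well above background, and the 4th instar CC-CA arrays gave -5.06, well above background, and -6.76, which was not. The signals of the other 8 tissues, between -9.23 and -6.65, were not well above background. Epidermis exceeded the 4th instar CC-CA by 3.64 (2.05 to 5.24) and every group by at least 6.77-fold.

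BmorCPFL4 was at -9.23 on the 5th instar CC-CA array, not well above background, and at -5.53 and -4.86 on the 4th instar CC-CA arrays. Epidermis had -3.26 and testis -6.04, and the other 7 tissues gave signals between -8.30 and -6.86 that were not well above background. Epidermis exceeded the 4th instar CC-CA by 1.93 (0.74 to 3.12), and the 4th instar CC-CA exceeded testis by 0.85 (-0.34 to 2.03), which does not separate them. The second probe agreed in epidermis (-3.41) and testis (-6.00) but gave -6.28 and -8.12 on the 4th instar CC-CA arrays, neither well above background. The CC-CA values of BmorCPFL4 thus rest on 1 probe. CPG22 and CPG23, which lie between CPFL3 and CPFL4 in the annotation, were well above background in epidermis alone, at -2.42 and -5.28. The CPG23 level lay under the lowest measurable level in fat body (-5.02), so an equal level there would not have been seen.

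**Figure D2:**
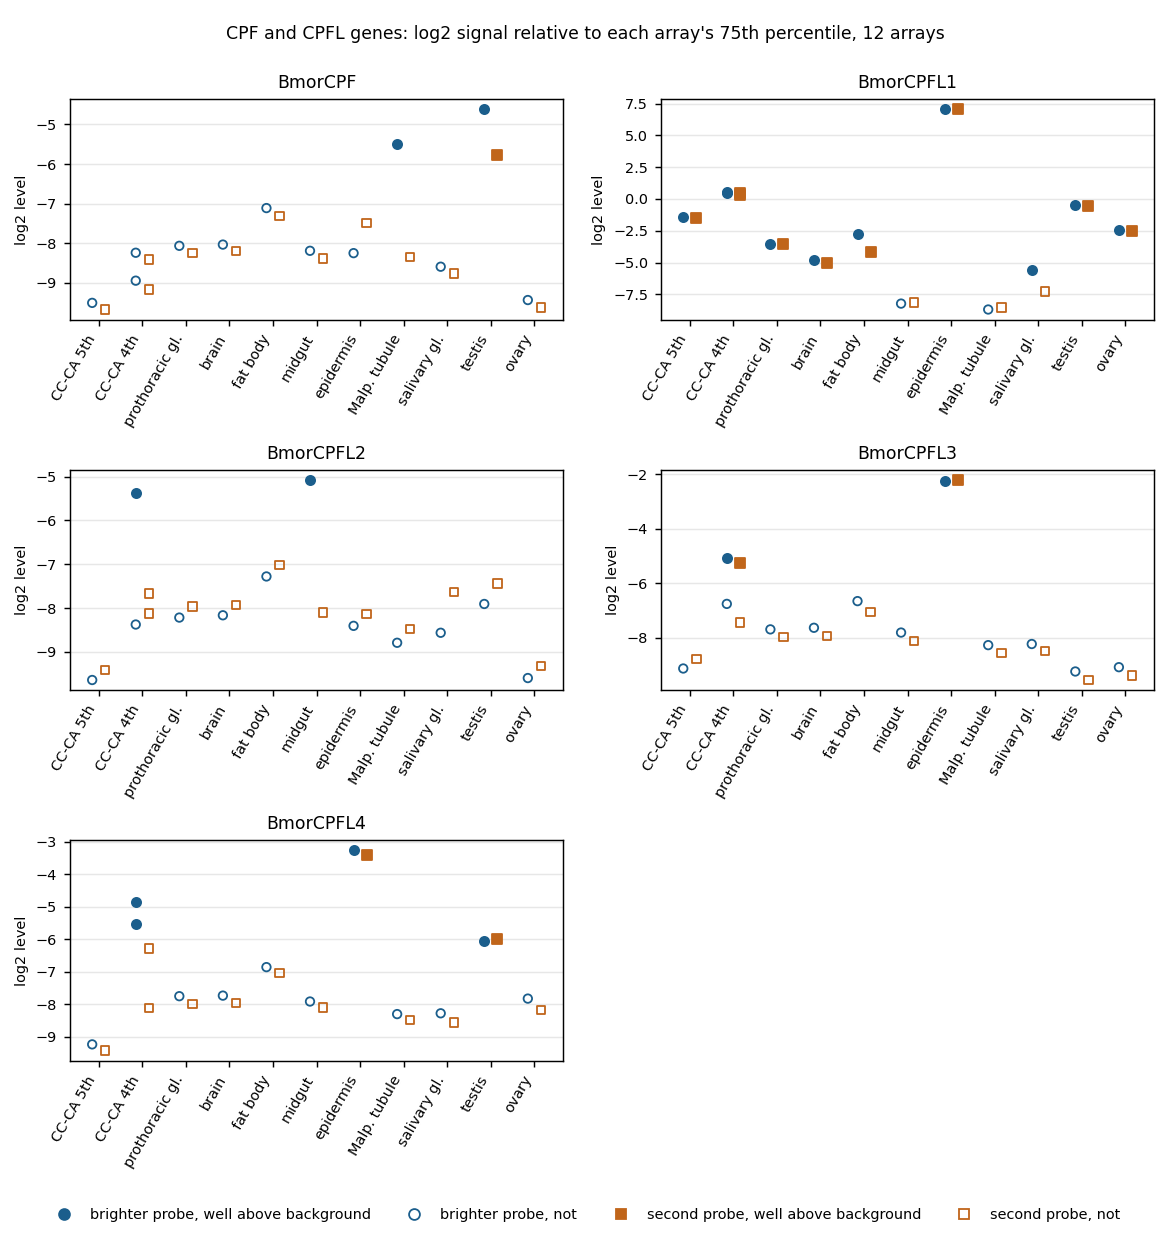
Log2 level of the CPF gene and the 4 CPFL genes (vertical axis, relative to each array's 75th percentile) on the 12 arrays by group (horizontal axis), with circles for the brighter probe, squares for the second, and open symbols for signals not well above background. BmorCPFL1, BmorCPFL3 and BmorCPFL4 are highest in epidermis at 7.05, -2.26 and -3.26, while BmorCPF and BmorCPFL2 exceed background on 2 arrays each.

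Counted by array, 3 of the 9 genes were well above background on the 5th instar CC-CA array (BmorCPT1, BmorCPT2 and BmorCPFL1) and 4 on each 4th instar CC-CA array. Testis had 7, ovary 5, epidermis and fat body 4 each, prothoracic gland, brain and midgut 2 each, and Malpighian tubule and salivary gland 1 each. The testis array was also the one with the largest share of all spots well above background, at 78.6%. That share was 75.5% in ovary, 69.4% in epidermis, 66.8% in Malpighian tubule, 64.7% in salivary gland and 60.4% in fat body. The counts of the 9 genes were not tested against these shares. The 7 genes in testis therefore do not by themselves mark it as rich in this set. Of the 211 genes of the other cuticular families, 86 were well above background on the 5th instar CC-CA array, 79 and 78 on the 4th instar CC-CA arrays, 99 in epidermis, 85 in testis and 82 in ovary.

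Set by the group of highest level, 4 of the 9 genes led in epidermis, 3 of them by at least 4-fold, 2 in fat body, 1 in ovary, 1 in testis and 1 in midgut. The leads in midgut and testis, and that of BmorCPT2 in fat body, are not firm. BmorCPFL2 in midgut lay under the lowest measurable level in fat body, and the testis lead of BmorCPF turned negative under 3 other settings. For BmorCPT2, fat body and ovary were not apart (1.14, 95% interval -0.12 to 2.41). None led in the CC-CA at either stage. Of the 211 other cuticular genes, 69 led in epidermis, 46 of them by at least 4-fold. Ovary led for 24 (8 by at least 4-fold), testis for 17 (10) and fat body for 12 (7). The 5th instar CC-CA led for 13 (2 by at least 4-fold) and the 4th instar CC-CA for 10 (1). Another 43 had no signal well above background in any group. Some of these leads, like that of BmorCPFL2, lay under the lowest measurable level of another array. Of the 29 glycine-rich CPG genes, 18 led in epidermis and 6 in fat body, and of the 148 genes of the CPR family, which carries the Rebers and Riddiford chitin-binding domain, 43 led in epidermis and 6 in fat body. These counts are a description, and differences between the families were not tested. The share of all genes on the array that led in each group was not computed. The gonads were from a later stage than the other groups, so stage and tissue cannot be told apart in their leads.

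**Figure D3:**
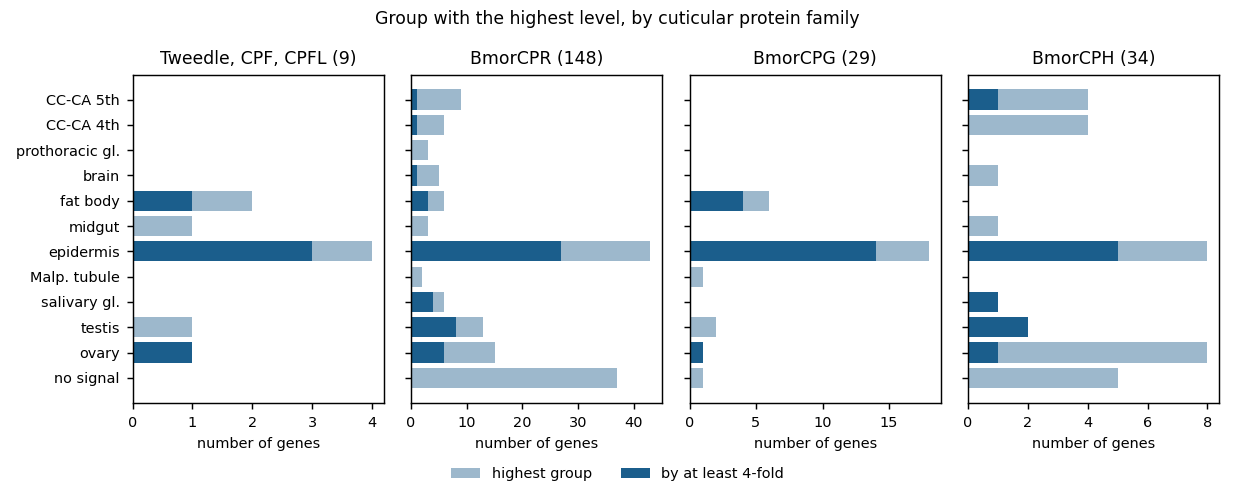
Number of genes (horizontal axis) by the group in which their level was highest (vertical axis), for the 9 Tweedle, CPF and CPFL genes and for the 148 CPR, 29 CPG and 34 CPH genes, with the dark part of each bar showing genes that led by at least 4-fold. Epidermis holds 4 of the 9 genes and 69 of the 211 others, and fat body holds 2 of the 9 and 12 of the 211.

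Between the CC-CA stages, 2 of the 9 genes were lower on the 5th instar array and 1 was higher, by limma's moderated test with adjusted p below 0.05. Across all probes tested in that comparison 4.49% were called lower and 1.25% higher. With the deposited value table in place of the 75th percentile, the calls over all probes were 604 higher and 1157 lower, against 402 and 1440. BmorCPT1, BmorCPT2, BmorCPFL1 and BmorCPFL4 were tested, since 1 stage was well above background on all its arrays. The other 5 were not, and for BmorCPT3, BmorCPT4 and BmorCPF no CC-CA array was well above background. BmorCPT2 entered only through the 5th instar array and BmorCPFL4 only through the 4th instar arrays. Each of these could differ only towards that side, so the counts are a description. With both stages required above background, 2 genes were tested, with 0 called higher and 1 lower.

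BmorCPT1 had -4.62 in the 5th instar CC-CA, against a mean of -0.87 ± 0.15 (SD, n = 2) in the 4th. The 5th instar array lay below both 4th instar arrays, by 3.64 and 3.85. The fitted difference was -3.74 ± 0.48 (SE), or 13.4-fold lower (limma, adjusted p = 0.00344). The second probe gave -3.88 (limma, adjusted p = 0.00284). After quantile normalisation the first probe's difference was again -3.74 but was not called (adjusted p = 0.186).

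BmorCPFL1 had -1.45 in the 5th instar CC-CA and 0.51 ± 0.09 (SD, n = 2) in the 4th. Here too the 5th instar array was below both others, by 1.90 and 2.02, but the difference of -1.96 ± 0.48 (SE) missed the threshold (limma, adjusted p = 0.0542), with an adjusted p of 0.0614 for the second probe. Over the alternatives its adjusted p ranged between 0.000812 and 0.193.

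BmorCPFL4 gave -9.23 in the 5th instar CC-CA, a signal not well above background, and stood at -5.19 ± 0.47 (SD, n = 2) in the 4th. It was at least 4.60-fold lower in the 5th instar, with a fitted difference of -4.04 ± 0.52 (SE) (limma, adjusted p = 0.00336). Its second probe, not well above background on any CC-CA array, was not tested. The fall was not called after quantile normalisation (-2.75) or normexp background correction (-1.16).

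BmorCPT2 ran the other way. It stood at -4.86 in the 5th instar CC-CA and was not well above background on either 4th instar array (-7.28 and -7.27), which makes the 5th instar level higher by at least 3.15-fold. The fitted difference was 2.41 ± 0.48 (SE) (limma, adjusted p = 0.0230), and 3.03 for the second probe (adjusted p = 0.00878). The call was lost after quantile normalisation (2.62), with normexp correction (1.08), and with dim signals raised to a floor (1.65). Fat body is the group in which BmorCPT2 was highest, and AKHR, the adipokinetic hormone receptor gene used as the fat body marker, was -9.05 in the 5th instar CC-CA and -8.48 and -9.24 in the 4th, not well above background on any of the 3 arrays. AKHR was at -0.23 in fat body, which was sampled in the 4th instar only. Whether fat body tissue had a part in the BmorCPT2 difference was not tested.

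**Figure D4:**
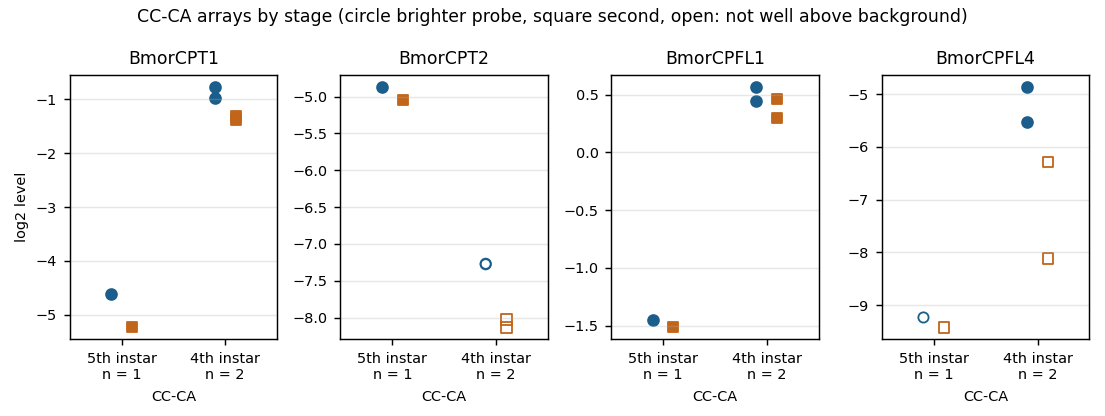
Log2 levels on the CC-CA arrays (vertical axis, a separate scale for each gene) of the 4 genes tested between stages, with the 5th instar array left of the 2 arrays of the 4th instar, circles for the brighter probe, squares for the second, and open symbols for signals not well above background. The 5th instar array lies below both 4th instar arrays for BmorCPT1, BmorCPFL1 and BmorCPFL4 and above both for BmorCPT2.

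The other cuticular families gave the surroundings of these changes. Of their 211 genes, 95 were tested between the stages, of which 13 were higher and 30 lower in the 5th instar CC-CA, with a median log2 difference of -0.66 beside -0.03 over all 32105 probes tested. Of all those probes, 1.25% were called higher and 4.49% lower. By family, 11 of 57 CPR genes tested were higher and 13 lower, 1 of 18 CPG genes higher and 9 lower, and 1 of 20 CPH genes higher and 8 lower. BmorCPR72 and BmorCPR10 had the largest called rises by fitted value. BmorCPR72 rose by 6.42 ± 0.50 (SE) on the log2 scale, and BmorCPR10, not well above background on either 4th instar array, was higher by at least 32.9-fold. BmorCPG4 and BmorCPR90 had the largest called falls by fitted value, -7.93 ± 0.49 and -7.72 ± 1.65, though the 4th instar arrays disagreed for BmorCPR90 (4.36 and -0.91). The summed linear level of the 211 genes was 192 on the 5th instar CC-CA array, against 372 and 362 on the 4th instar arrays. That sum was thus lower in the 5th instar CC-CA along with BmorCPT1 and BmorCPFL4, and its part in their differences was not tested. The markers of the complex also differed between these arrays: BmJHAMT, the corpora allata marker, was at -1.55 in the 5th instar CC-CA and at 2.39 and 2.08 in the 4th, AKH-1 at 6.04, against 5.38 and 5.22, and AKH-2 at 6.34, against 5.06 and 5.53. The part of these differences was not tested either.

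The question of the series is how the 4th instar CC-CA differs from each other tissue. Of the 81 pairs of a gene and a tissue, 39 were tested, and the 4th instar CC-CA was higher in 21 and lower in 13. Over all probes in these comparisons together, 16.1% of tests were called higher and 12.1% lower. A pair was tested only where 1 side was well above background on all its arrays, so most of these pairs could differ only towards that side, and the counts are a description. The CC-CA arrays were on other slides than epidermis, Malpighian tubule, testis and ovary, so slide and tissue cannot be told apart there.

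BmorCPT1, BmorCPFL1 and BmorCPFL4 were each called higher in the 4th instar CC-CA against 7 of the 9 tissues, lower against epidermis, and neither way against testis. For BmorCPFL4 this holds for 1 probe, since the second was not tested against any of the 7, and against fat body the call has no measurable fold. Against prothoracic gland these 3 genes were the ones called, with 17% of all probes higher and 4.05% lower. BmorCPT1 was 5.39-fold higher, by 2.43 ± 0.48 (SE) (limma, adjusted p = 0.00619), BmorCPFL1 16.6-fold and BmorCPFL4 at least 1.70-fold. Against brain the same 3 were higher (background 14.6% higher, 9.99% lower), BmorCPT1 8.73-fold, BmorCPFL1 40.7-fold and BmorCPFL4 at least 1.65-fold. Against salivary gland 3 were higher (19.2% higher, 9.21% lower), BmorCPT1 at least 49.2-fold, BmorCPFL1 68.3-fold and BmorCPFL4 at least 2.46-fold. The limma adjusted p of these 9 differences was 0.00697 or less.

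In midgut 4 genes were tested and 3 were higher in the CC-CA (background 18.6% higher, 14.6% lower). BmorCPFL1 was higher by at least 97.9-fold, BmorCPT1 by 21.9-fold and BmorCPFL4 by at least 1.88-fold (limma, adjusted p of 0.00365 or less). BmorCPFL2 ran lower by -1.80 ± 1.02 (SE) and was not called (limma, adjusted p = 0.231). The second probe of BmorCPT3, the one with a midgut signal, was at least 2.27-fold lower in the CC-CA (limma, adjusted p = 0.00437). Against Malpighian tubule, 3 genes were higher and 1 lower (background 18.2% higher, 13.3% lower). BmorCPFL1 was higher by at least 134-fold, BmorCPT1 by at least 51.3-fold and BmorCPFL4 by at least 2.57-fold (limma, adjusted p of 0.00169 or less). BmorCPF was at least 2.03-fold lower in the CC-CA, by -3.10 ± 0.52 (SE) (limma, adjusted p = 0.00179), on the probe that saw it in that tissue.

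Against epidermis the 4 genes tested were all lower in the 4th instar CC-CA, where 11.8% of probes were lower and 10% higher. BmorCPT1 was lower by -7.05 ± 0.48 (SE), which is 132-fold (limma, adjusted p = 2.77e-05), and BmorCPFL1 by -6.54 ± 0.48 or 93.4-fold (adjusted p = 3.77e-05). BmorCPFL3 differed by -3.64 ± 0.70, with 1 of the 2 CC-CA arrays well above background (adjusted p = 0.00546). That difference was -4.49 without replicate 1 of the CC-CA and -2.79 without replicate 2. BmorCPFL4 differed by -1.93 ± 0.52, which is 3.82-fold (adjusted p = 0.0286), and by at least 8.62-fold on the second probe. The last 2 were not called after quantile normalisation, nor was BmorCPFL4 with the deposited value table or a variance trend. Of the other cuticular families, 73 of 107 genes tested were lower in the CC-CA and 10 higher, with a median of -3.12 beside -0.10 over all probes.

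Against fat body 3 genes were higher in the 4th instar CC-CA and 2 lower (background 17% higher, 15.8% lower). The lower ones were the pair BmorCPT2 and BmorCPT3, at least 21.6-fold and at least 20.3-fold, with fitted differences of -5.19 ± 0.48 and -5.33 ± 0.52 (SE) (limma, adjusted p = 6.96e-05 and 9.51e-05). BmorCPT1 was 7.91-fold and BmorCPFL1 9.73-fold higher (limma, adjusted p = 0.00148 and 0.000839). BmorCPFL4 was called higher, by 1.66 ± 0.52 (adjusted p = 0.0387), but its CC-CA level lay under the lowest signal that could be measured in fat body, so no fold is given.

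Against ovary 3 genes were higher and 3 lower (background 11.4% higher, 8.99% lower). The 3 lower in the CC-CA were BmorCPT4 by at least 59.8-fold (-8.06 ± 0.53 SE, limma adjusted p = 1.28e-05), BmorCPT2 by at least 9.77-fold and BmorCPT3 by at least 2.35-fold. BmorCPT1 was 4.90-fold, BmorCPFL1 7.86-fold and BmorCPFL4 at least 4.47-fold higher in the CC-CA. The adjusted p of these 6 differences was 0.0168 or less. Against testis 3 of the 7 genes tested were lower in the CC-CA (background 18.7% higher, 20.4% lower). BmorCPF was lower by at least 3.74-fold, BmorCPT2 by at least 3.39-fold and BmorCPT4 by at least 1.72-fold (limma, adjusted p of 0.00328 or less). BmorCPT1 was 1.37 higher without passing the threshold (limma, adjusted p = 0.0527), and its second probe passed at 1.55 (adjusted p = 0.0329). The differences of BmorCPFL1 (1.01), BmorCPFL4 (0.85) and BmorCPT3 (-0.62) were not called. The second probe of BmorCPFL4 ran the other way, at -1.19, and was not called either.

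**Figure D5:**
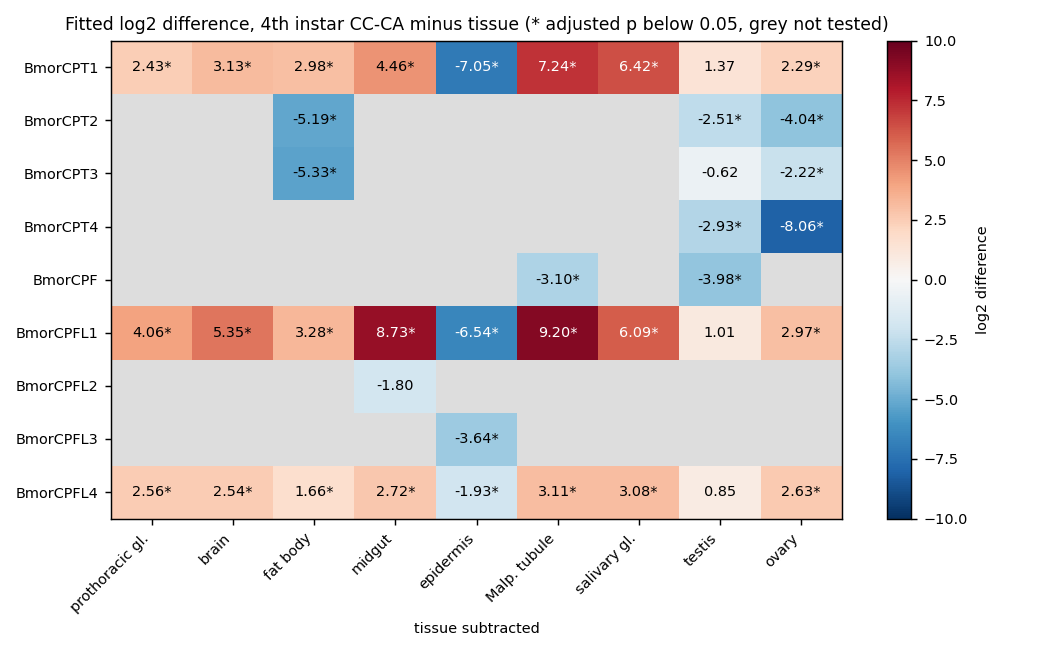
Fitted log2 difference of the 9 genes (rows) for the 4th instar CC-CA minus each of 9 tissues (columns), coloured red where the CC-CA was higher and blue where it was lower, with an asterisk for limma adjusted p below 0.05 and grey for pairs not tested. Shown by the brighter probe of each gene, BmorCPT1, BmorCPFL1 and BmorCPFL4 are red in 8 columns and blue in epidermis, where BmorCPT1 reaches -7.05.

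The deposited value table, which scales the arrays in another way, gave 24 pairs higher and 12 lower, while its calls over all probes moved to 15492 higher and 4416 lower against testis (6478 and 7080 with the 75th percentile), and to 5012 and 11737 against salivary gland (5854 and 2810). They moved to 4565 and 4203 against prothoracic gland (5133 and 1220), to 5361 and 6155 against Malpighian tubule (5722 and 4170) and to 4577 and 2093 against ovary (3795 and 2985). Taking the percentile over probes detected on all arrays gave 6763 higher and 1770 lower against salivary gland.

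Each gene's profile over the 11 groups was set against those of 285 named genes with a signal, with signals not well above background placed at the lowest measurable level of their array. The correlations describe these arrays only, since the points share those floors and, for most genes, 1 dominant group. BmorCPT1 was most like the glycine-rich BmorCPG3 (Pearson r = 0.964, Spearman rho = 0.86), BmorCPFL1 (r = 0.954, rho = 0.89) and BmorCPG13 (r = 0.930). Without epidermis, over 10 groups, BmorCPT1 and BmorCPFL1 had r = 0.870 and BmorCPT1 and BmorCPG3 r = 0.842, while r was 0.651 for BmorCPT1 and BmorCPG13. BmorCPFL1 was most like BmorCPT1, then BmorCPR1 (r = 0.944) and BmorCPR56 (r = 0.920), which had r = 0.911 and 0.758 without epidermis. A Tweedle gene and a CPFL gene thus had each other among their 3 closest profiles.

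BmorCPFL3 was closest to BmorCPG22, its neighbour in the annotation (r = 0.994), then BmorCPG1 (r = 0.984) and BmorCPG27 (r = 0.977). BmorCPG22 had a signal in epidermis alone, so its likeness to BmorCPFL3 rests on epidermis and shared array floors. Without epidermis, where BmorCPG22 has only floors left, r was still 0.978. BmorCPFL4 was closest to BmorCPG6 and BmorCPG1 (both r = 0.938) and to BmorCPFL3 (r = 0.921). BmorCPT2 had the weakest likeness of the Tweedle genes, to BmorCPG20 (r = 0.844), BmorCPG9 (r = 0.777) and the neuropeptide receptor gene BNGR-B1 (r = 0.751). BmorCPT3 was most like the juvenile hormone epoxide hydrolase gene JHEH2 (r = 0.959), AKHR (r = 0.950) and BNGR-B1 (r = 0.916), and with BmorCPT2 it had r = 0.731. Without fat body, r of BmorCPT3 was 0.930 with JHEH2, 0.640 with AKHR and 0.550 with BNGR-B1, and r of BmorCPT2 was 0.325 with BNGR-B1. In the groups then left, BmorCPT3 had a signal only in ovary (-5.28) and testis (-6.89). Its other levels were array floors, on which these r of BmorCPT3 partly rest.

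BmorCPT4 was most like BmorCPR92 (r = 0.997), BmorCPR55 (r = 0.979) and BmorCPH22 (r = 0.966), with rho = 1 for each. Each of these genes, like BmorCPT4, had a signal in 2 groups only. The order of the remaining groups is that of the array floors, which the genes share, so this rho says nothing about those groups. BmorCPF was closest to the receptor genes BNGR-B2 (r = 0.921) and BNGR-A25 (r = 0.905) and to BmorCPG29 (r = 0.889). For BmorCPFL2, r with BmorCPH8, BmorCPR119 and BNGR-A34 was 0.957, 0.945 and 0.941, but it was also 0.954 without midgut, where only array floors and 1 CC-CA signal are left. With 1 floor for all arrays, at -5.02, a choice made after seeing the data, r between BmorCPT2 and BmorCPG20 was 0.695 and between BmorCPT2 and BNGR-B1 0.868. Under that floor BmorCPFL2 had no signal left above it and no correlation could be computed.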

How the data were processed

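Cy3-labelled RNA of 12 samples was hybridised to a custom Agilent array, and the spot intensity values deposited by the authors are Agilent Feature Extraction 9.5.3.1 output, per the file headers and the submitters' processing notes: background-corrected processed signal with flags for signals well above background and for saturation. The deposited value table equals that intensity divided by 1 constant per array, of unknown meaning, with column medians of 4.95 to 10.1. No genome build of the array's design is named in these sources.

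From these, control spots were left out, spots of a probe were averaged, each array's 75th percentile was subtracted on the log2 scale (the deposited files hold linear values, and log2 was taken here), and 224 probes without a value were dropped. limma 3.58.1 in R 4.3.3 was fitted over 11 groups and 38086 probes (lmFit and eBayes, 1 residual degree of freedom and 7.39 prior degrees). A probe entered a comparison if 1 group was well above background on all its arrays, and p-values were adjusted (Benjamini-Hochberg) over all probes of a comparison. The labels describe the CC-CA batches as independent experiments, and p-values measure only the spread between those 2 arrays. The fit was tested on simulated data. For a group not well above background, a fold is a bound: the mean of the brighter group was set against, on each dim array, the probe's signal or the array's lowest measurable one, whichever was higher. No member was saturated. Beside normexp background correction (offset 50), run on median signals because the files hold no mean signal, other scalings, filters, moderations and probe rules were tried.

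All 9 members are named. For each, the 3 named genes of highest Pearson r are given, and of the other cuticular families the 2 largest called rises and falls between the CC-CA stages. Members, lists and rules were chosen with earlier results of these data known. Gene names and neighbours are from RefSeq, which matched 9 of 9 members and 198 of 211 other cuticular names.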

Additional observations from a re-analysis of the deposited data

How the results depend on the processing

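The direction of the 4 stage differences and the 4 epidermis differences held wherever a value could be computed. Quantile normalisation left 0 members called higher and 0 lower in the 5th instar CC-CA (1 and 2 as reported; at an unadjusted limma p below 0.05 it had 1 and 3) and 13 pairs of a gene and a tissue higher (21 as reported). Its adjusted p (limma) was 0.186 for BmorCPT1 (-3.74) and BmorCPT2 (2.62), 0.219 for BmorCPFL4 (-2.75), and in the epidermis comparison 0.125 for BmorCPFL3 (-3.98) and BmorCPFL4 (-2.16). Normexp left 0 members called higher between stages, with BmorCPT2 at 1.08 and BmorCPFL4 at -1.16, and the floor under dim signals 0, with BmorCPT2 at 1.65. Requiring both groups above background left 0 higher and 1 lower between stages and 10 pairs higher and 3 lower (13 lower as reported), because fewer probes are tested. BmorCPFL4 against epidermis missed the threshold with the value table (-1.65, adjusted p 0.0594) and with a variance trend (-1.93, adjusted p 0.0876). BmorCPFL1 between stages passed it with the percentile over probes detected on all arrays (-2.04), normexp (-1.94), the floor, the variance trend and robust moderation (-1.96 each). Over all probes, calls between the stages were 402 higher and 1440 lower as reported, 0 and 0 after quantile normalisation (3004 and 3040 unadjusted), 101 and 911 with both groups above background, 1037 and 2067 with normexp, 1456 and 2422 with robust moderation, and 2008 and 3164 with a variance trend. Apart from the both-groups filter, the cause was not tested.

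Testis led BmorCPF by 0.41 as reported, but fell behind the bound of another array under quantile normalisation (-0.48), the value table (-0.53) and normexp (-0.42). The value table moved the median difference over all probes to 0.27 between the CC-CA stages (-0.03 as reported), to 1.10 against testis (0.06) and to -1.02 against salivary gland (-0.17).

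Leaving out each 4th instar CC-CA array in turn gave stage differences of -3.85 to -3.64 for BmorCPT1, 2.40 to 2.41 for BmorCPT2, -2.02 to -1.90 for BmorCPFL1 and -4.37 to -3.70 for BmorCPFL4. Against epidermis it gave -7.15 to -6.94 for BmorCPT1, -6.61 to -6.48 for BmorCPFL1, -4.49 to -2.79 for BmorCPFL3 and -2.27 to -1.60 for BmorCPFL4. With 2 arrays in that group, each such value is the difference from the array left in, so it adds no check beyond the array levels. These fits, and one with slide as a block, leave no residual degree of freedom and so give values without a test. No paired analysis was possible because only 1 group has more than 1 array, so that the groups share fewer than 2 replicate numbers. Signals near background limit BmorCPF, BmorCPFL2 and the CC-CA values of BmorCPFL3 and BmorCPFL4.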

Other observations

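Fat body and ovary led for 3 of the 4 Tweedle genes, though they were not apart for BmorCPT2. They also led for genes of the other cuticular families. Of 211 such genes, 12 were highest in fat body, 7 of them by at least 4-fold: BmorCPG18 exceeded every other group by 4.90 on the log2 scale, BmorCPG16 by 3.48, BmorCPR143 by 3.09, BmorCPR105 by 2.98 and BmorCPG24 by 2.85. Another 24 were highest in ovary, 8 of them by at least 4-fold, with BmorCPR92 ahead by 6.33, BmorCPR69 by 4.12, BmorCPH19 by 3.39 and BmorCPR55 by 2.91. These genes were chosen for naming after their values were seen. The share of all genes on the array that led in fat body or ovary was not computed, so the counts are a description. Where the other groups gave no signal well above background, the margin is a lower bound set by the lowest measurable level.

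In the 4th instar CC-CA against fat body, 47 of 80 genes tested from these families were higher and 17 lower, with a median of 2.55 on the log2 scale. Among the CPG genes, 7 were higher and 8 lower of 17 tested (median 0.05), and among the CPH genes 11 higher and 1 lower of 19 (median 2.87). Against ovary, 49 of 108 were higher and 30 lower (median 1.09), and against testis 52 of 113 higher and 40 lower (median 1.01), beside medians over all probes of 0.00 for fat body, -0.25 for ovary and 0.06 for testis. Over all probes tested, 17% were called higher and 15.8% lower against fat body, 11.4% and 8.99% against ovary, and 18.7% and 20.4% against testis. With the deposited value table the calls over all probes against testis moved to 15492 higher and 4416 lower. The family counts were not repeated with that table. Differences between the families were not tested.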
